A study of Drosophila melanogaster with 12 samples.

Results

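The genes described here are 9 amino acid transporter genes, followed across 4 levels of the moulting hormone in wing discs. They are the SLC7 light chains mnd, JhI-21, gb and sbm, their heavy chain CD98hc, the cationic carrier slif, the SLC36 family member path, and the glutamate carriers dmGlut and Eaat1. They were found by symbol in a deposited table of 12216 genes, where all 9 have a row. The tissue was the wing imaginal disc, the larval epithelium that forms the adult wing, from Drosophila melanogaster larvae of genotype w1118, which the labels call wild type. Per the labels, the discs were taken 24 h after the moult to the third larval instar and were kept for 2.5 h at 25°C in culture medium. The groups differed in the 20-hydroxyecdysone (20E, the active form of ecdysone) added to that medium, at 0, 20, 200 or 2000 nM, with 3 libraries per dose. All groups shared genotype, age and culture, so 0 nM is a culture without added hormone and not a disc straight from the larva.

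Amino acids enter animal cells through families of solute carriers. A light chain of the SLC7 family does the transport, and it pairs with a single-pass heavy chain of the SLC3 family, in flies CD98hc, which brings the pair to the plasma membrane. Carriers of the SLC36 family, to which path belongs, move small neutral amino acids with protons and also sit on late endosomes and lysosomes. Imported amino acids, leucine above all, feed the TOR kinase pathway that sets growth, and several of the genes here are known for growth phenotypes in larvae. dmGlut and Eaat1 handle glutamate, which is both a metabolite and a neurotransmitter.

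Values are normalised counts: reads per gene that the authors divided by a size factor for each library, so that libraries of different depth can be compared. Libraries held 9034719 to 27006374 reads, and 1 read equalled 0.565 to 1.69 normalised counts. Genes were tested if they reached 10 normalised counts in at least 3 of the 12 libraries, which 8455 genes did, with 8 of the 9 transporter genes among them. Log2 fold changes (with SE) and p-values come from limma on log2(normalised count + 1) with 3 libraries per dose. Adjusted p-values are Benjamini-Hochberg values over all 8455 genes, and "rose" or "fell" is written only where the adjusted p was under 0.05. Nothing in the labels ties a replicate to its own culture or group of larvae, so each p here is read against a spread between libraries that may be technical. In RNA from whole discs, fewer cells of a type and less RNA per cell cannot be told apart. Markers of the wing disc epithelium were high in every library, with 7 of 7 measured and a summed level of 36606 to 39731 at 2000 nM and 27505 to 29770 at 0 nM. Of these 7 markers 5 rose at 2000 nM against 0 nM, where 15.4% of all tested genes rose. Whether the epithelium's share of the RNA bears on the transporter values was not tested. Fat body markers, 7 of 7 measured, summed to 99.4 to 381 in the libraries with hormone and were uneven at 0 nM, with 740, 46.9 and 2518 in replicates 1, 2 and 3. Results that touch 0 nM are therefore also given against 0 nM replicate 2 alone where this changes a call.

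CD98hc (FBgn0037533), the heavy chain, was the most abundant of the genes and rose at each dose relative to 0 nM. It measured 3269, 3367 and 3310 normalised counts at 0 nM, 4365, 3956 and 3826 at 20 nM, 5875, 5953 and 5463 at 200 nM, and 6264, 6469 and 5746 at 2000 nM. No library with hormone overlapped the 0 nM libraries, no 200 or 2000 nM library overlapped the 20 nM libraries, and the 2 highest doses overlapped each other. At 2000 nM it was 1.86-fold higher than at 0 nM (95% interval 1.68 to 2.05; log2 0.89 ± 0.07; limma adjusted p 1.59e-07), and at 200 nM 1.74-fold higher (limma adjusted p 6.97e-07). At 200 nM it was 0.51 ± 0.07 above 20 nM on the log2 scale (limma adjusted p 0.000173). Between 2000 nM and 200 nM the difference was 0.10 on the log2 scale, with an interval of -0.05 to 0.24 (limma adjusted p 0.665). The rise at 20 nM was small, 1.22-fold (log2 0.29 ± 0.07; limma adjusted p 0.0233). It missed the threshold without any single one of the 0 nM libraries or without 20 nM replicate 1 or 2 (limma adjusted p 0.0594 to 0.108), and against 0 nM replicate 2 alone (0.456).

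mnd (minidiscs, FBgn0002778) encodes an SLC7 light chain that carries leucine, and it is named for the small discs of mutant larvae. Its RNA was high at 200 and 2000 nM and low without hormone. It measured 226, 322 and 191 normalised counts at 0 nM, 358, 376 and 344 at 20 nM, 1798, 2513 and 1656 at 200 nM, and 2381, 2641 and 2163 at 2000 nM. Every 200 and 2000 nM library was above every library at 0 or 20 nM, while the ranges of 200 and 2000 nM overlapped. At 2000 nM mnd was 9.89-fold higher than at 0 nM (95% interval 7.65 to 12.8; log2 3.31 ± 0.17; limma adjusted p 3e-09), which ranked 67 among the 1306 genes that rose in that comparison. At 200 nM it was 8.10-fold higher than at 0 nM (limma adjusted p 1.06e-08) and 5.44-fold higher than at 20 nM, rank 27 of the 358 genes that rose from 20 nM (limma adjusted p 4.47e-07). The 2 highest doses differed by 0.29 ± 0.17 on the log2 scale, with an interval of -0.08 to 0.66 (limma adjusted p 0.598). At 20 nM all 3 libraries lay above all 3 at 0 nM, by 0.57 ± 0.17 on the log2 scale, but the limma adjusted p was 0.0915. That p was under 0.05 without 0 nM replicate 2 (0.00673) and without 200 nM replicate 2 (0.0464), and the difference was 0.16 against 0 nM replicate 2 alone.

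JhI-21 (FBgn0028425), a second leucine carrier among the SLC7 light chains, showed no such step. It measured 1186, 1344 and 1198 normalised counts at 0 nM, 1201, 1370 and 1281 at 20 nM, 1282, 1501 and 1228 at 200 nM, and 1275, 1236 and 1382 at 2000 nM. All 4 doses overlapped. The difference of 2000 nM from 0 nM was 0.06 ± 0.09 on the log2 scale (limma adjusted p 0.629), and its interval in fold, 0.920 to 1.19, leaves out changes of the size seen for mnd. Its exons share 295 of 2368 bases (12.5%) with PLCXD on the other strand, a gene with a mean of 90.5 normalised counts. Whether the counting used strand is not given in the sources used here.

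gb (genderblind, FBgn0039487) encodes a light chain of the kind that exchanges cystine and glutamate, known from glia. It measured 141, 162 and 174 normalised counts at 0 nM, 243, 176 and 193 at 20 nM, 174, 197 and 168 at 200 nM, and 191, 190 and 182 at 2000 nM. All 20 nM and all 2000 nM libraries lay above those at 0 nM, by narrow margins, and the 200 nM libraries overlapped them. No comparison passed the threshold, with a log2 difference of 0.24 at 2000 nM against 0 nM (interval -0.04 to 0.52; limma adjusted p 0.183) and 0.35 ± 0.13 at 20 nM against 0 nM (limma adjusted p 0.228). An antisense RNA, asRNA:CR45209, covers 32.8% of the exon bases of gb and was not analysed here, and reads of the pair cannot be told apart without strand.

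sbm (sobremesa, FBgn0030574), a light chain with a known role in glia, was close to undetected. All 12 libraries together held 18 reads of it. At 0 nM there were 0, 0 and 3 reads, at 20 nM 0, 3 and 5, at 200 nM 0, 2 and 1, and at 2000 nM 3, 1 and 0. It was not tested, and no fold is given since nearly all libraries were at or under the 3 reads that a count of 0 still allows.

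**Figure D1:**
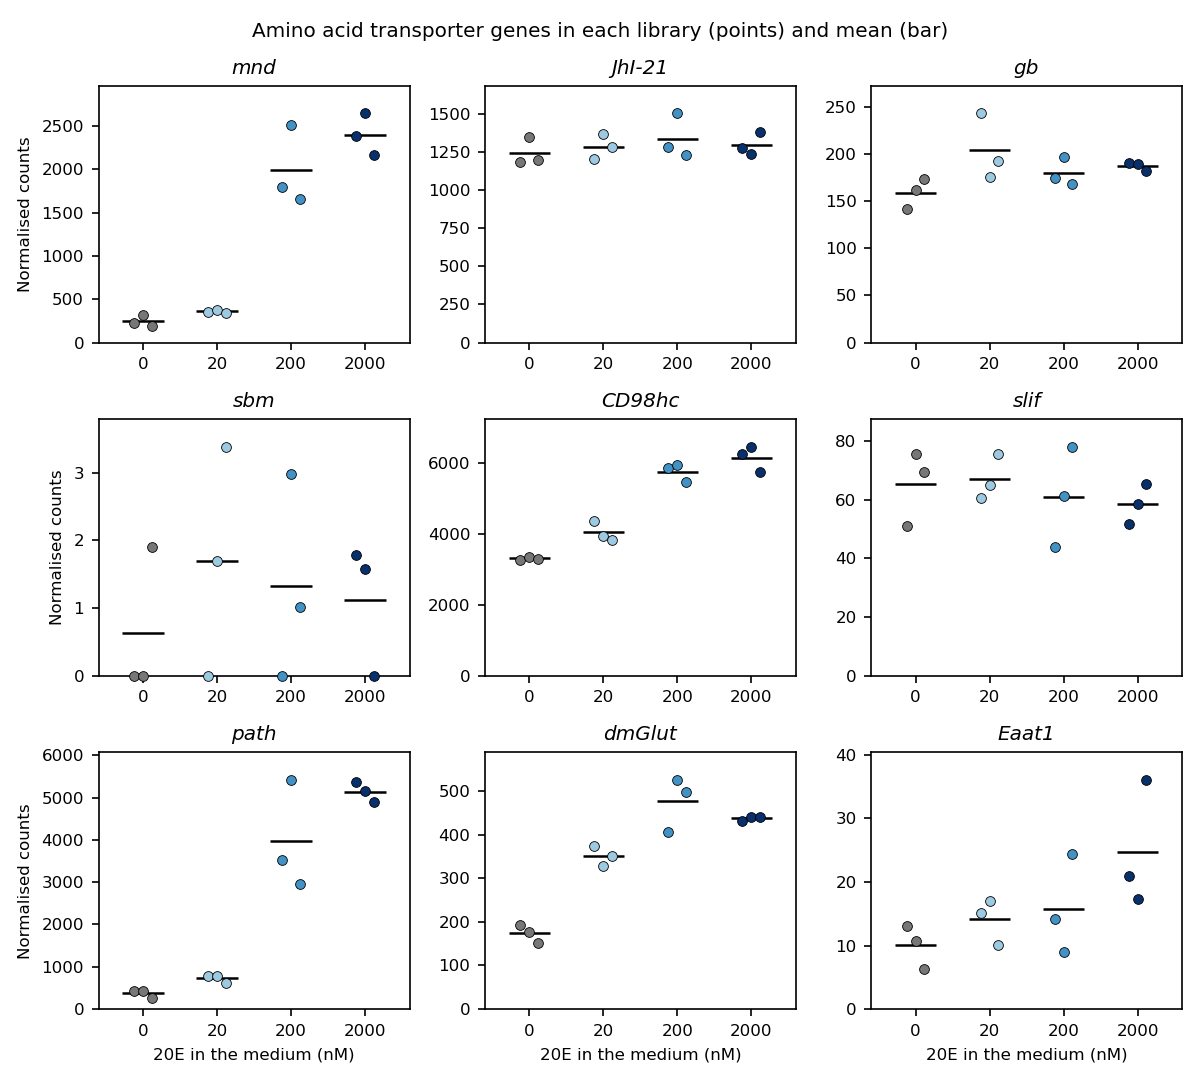
Normalised counts of the 9 transporter genes in each of the 12 libraries, by 20E dose in nM from low to high, with 1 panel per gene, points for libraries, and bars for the mean of 3 libraries. mnd, path and CD98hc have their largest step at 200 nM and dmGlut at 20 nM. path and CD98hc also rose at 20 nM against 0 nM, by 1.98-fold and 1.22-fold, beside 2.02-fold for dmGlut. JhI-21 and slif overlap at all 4 doses and sbm stays at a few reads.

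The panels of levels by library show that the 4 light chains did not move together, so their make-up shifted. Normalised counts per kb of exon were used for this, since longer genes collect more reads. mnd made up 14.0% ± 2.58 of the summed level of mnd, JhI-21, gb and sbm per kb at 0 nM, 18.5% ± 0.501 at 20 nM, 54.9% ± 2.89 at 200 nM and 60.2% ± 3.52 at 2000 nM (SD, n = 3 libraries each). The share of JhI-21 was 77.0% at 0 nM, 71.2% at 20 nM, 40.2% at 200 nM and 35.2% at 2000 nM. The counts of JhI-21 itself overlapped at all doses, and its share was lower where mnd was higher. The sum of the 4 light chains per kb was 682 at 0 nM, 761 at 20 nM, 1415 at 200 nM and 1560 at 2000 nM. Set against CD98hc per kb, that sum gave a ratio of 0.488 ± 0.0386 at 0 nM, 0.447 ± 0.0398 at 20 nM, 0.580 ± 0.0826 at 200 nM and 0.601 ± 0.0175 at 2000 nM. RNA per kb of the heavy chain was thus above the sum of these 4 light chains at every dose. The ratio differed less between doses than either level did, but its libraries at 0 nM (0.464 to 0.532) lay below those at 2000 nM (0.585 to 0.620).

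CG1607, another gene of the SLC7 light chain kind, changes this make-up. It measured 1422, 1593 and 1334 normalised counts at 0 nM, 3343, 2896 and 2752 at 20 nM, 4628, 3903 and 4039 at 200 nM, and 4702, 4502 and 4523 at 2000 nM. Each dose of hormone lay clear of 0 nM, and 20 nM was already well above it (log2 1.05 ± 0.09; limma adjusted p 2.54e-06). At 2000 nM CG1607 was 1.66 ± 0.09 higher than at 0 nM on the log2 scale (limma adjusted p 3.56e-09). With it in the sum, mnd took 8.42% of the 5 light chains per kb at 0 nM, 8.29% at 20 nM, 28.4% at 200 nM and 31.4% at 2000 nM. CG1607 took 40.0% at 0 nM, 55.2% at 20 nM, 48.4% at 200 nM and 48.0% at 2000 nM. The sum of the 5 per kb was 1138 ± 103 at 0 nM, 1703 ± 87.7 at 20 nM, 2731 ± 213 at 200 nM and 2998 ± 65.3 at 2000 nM, beside 1398 ± 20.7, 1708 ± 119, 2431 ± 111 and 2598 ± 157 for CD98hc. With CG1607 counted, the sum was therefore below CD98hc at 0 nM and above it at 2000 nM, with no overlap of libraries, and the 2 overlapped at 20 and 200 nM. The bars of light chain levels per library show JhI-21 at a like height throughout, with the mnd and CG1607 segments taller at 200 and 2000 nM.

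**Figure D2:**
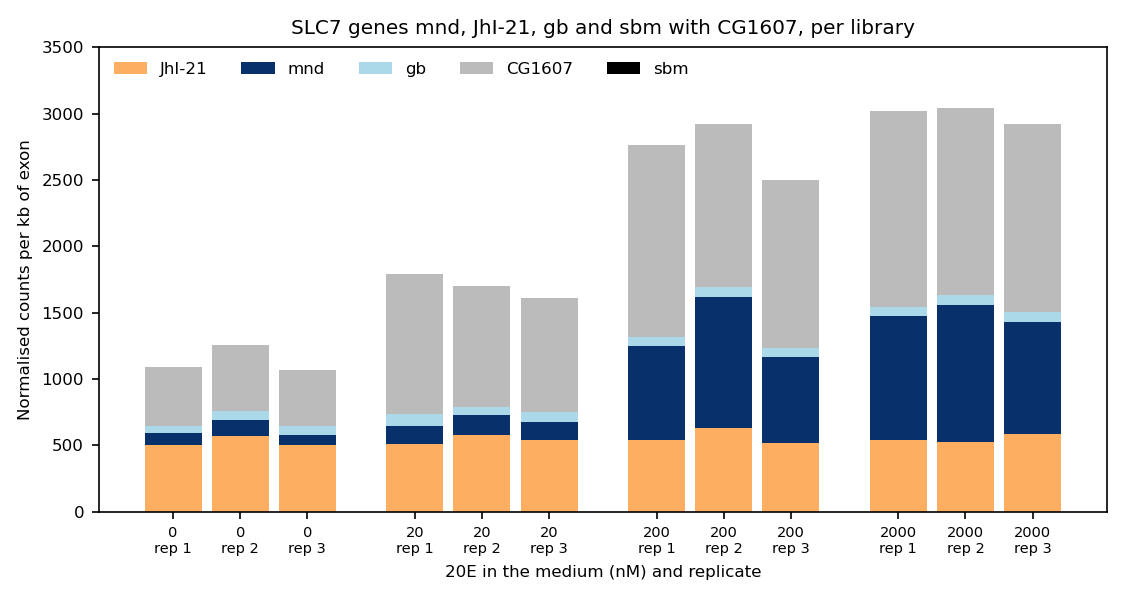
Stacked normalised counts per kb of exon of JhI-21, mnd, gb, CG1607 and sbm, with 1 bar per library, by 20E dose in nM from low to high; sbm is too low to be seen. The mnd segment averages 941 at 2000 nM and 96.8 at 0 nM, while that of JhI-21 averages 548 at 2000 nM and 525 at 0 nM.

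slif (slimfast, FBgn0037203) encodes a carrier of cationic amino acids such as arginine, known for the fat body's control of larval growth. It measured 51.1, 75.6 and 69.6 normalised counts at 0 nM, 60.7, 65.0 and 75.8 at 20 nM, 44.0, 61.2 and 78.1 at 200 nM, and 51.9, 58.5 and 65.3 at 2000 nM. All doses overlapped. The difference at 2000 nM against 0 nM was -0.14 ± 0.22 on the log2 scale (limma adjusted p 0.670), with an interval in fold of 0.652 to 1.26. That interval is wider than those of JhI-21 and CD98hc, which had higher levels.

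path (pathetic, FBgn0036007), the SLC36 family member, had the largest fold change of the 8 tested genes at 200 and at 2000 nM against 0 nM. It measured 428, 425 and 269 normalised counts at 0 nM, 788, 788 and 614 at 20 nM, 3518, 5418 and 2951 at 200 nM, and 5365, 5162 and 4891 at 2000 nM. The 0 nM, 20 nM and 200 nM ranges lay one above the other without overlap, and the 2000 nM libraries lay inside the 200 nM range. At 2000 nM path was 14.0-fold higher than at 0 nM (95% interval 10.3 to 19.0; log2 3.81 ± 0.20; limma adjusted p 3.88e-09), rank 45 of the 1306 genes that rose. At 200 nM it was 10.5-fold higher than at 0 nM (limma adjusted p 1.88e-08) and 5.28-fold higher than at 20 nM (limma adjusted p 2.82e-06). The difference of 2000 nM from 200 nM was 0.42 ± 0.20 on the log2 scale, with an interval of -0.02 to 0.86 (limma adjusted p 0.477). At 20 nM path also passed the threshold and was 1.98-fold higher than at 0 nM (interval 1.46 to 2.68; limma adjusted p 0.00938). That call was lost without 20 nM replicate 2 (adjusted p 0.0546) and against 0 nM replicate 2 alone (adjusted p 0.231). Whether path and mnd differed in their change at 20 nM was not tested.

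dmGlut (FBgn0010497), whose name stands for dietary and metabolic glutamate transporter, rose already at the lowest dose. It measured 194, 177 and 152 normalised counts at 0 nM, 374, 329 and 352 at 20 nM, 407, 525 and 497 at 200 nM, and 430, 441 and 441 at 2000 nM. Every library with hormone lay above every one without, and all 200 and 2000 nM libraries lay above the 20 nM libraries. The change was 2.02-fold at 20 nM (log2 1.01 ± 0.11; limma adjusted p 3.86e-05), 2.72-fold at 200 nM (limma adjusted p 2.51e-07) and 2.51-fold at 2000 nM (limma adjusted p 4.9e-07), each against 0 nM. These 3 calls held in all 20 alternative settings, the fits without single libraries included. The further step at 200 nM against 20 nM was 1.35-fold (limma adjusted p 0.0272) and missed the threshold without 20 nM replicate 2 or 3 or 200 nM replicate 2 or 3 (limma adjusted p 0.0856 to 0.135). At 2000 nM against 20 nM the log2 difference was 0.32 ± 0.11 (limma adjusted p 0.0691), and that p was 0.0423 without 200 nM replicate 1, 0.0402 in a fit of only the doses compared and 0.0241 in limma-voom on recovered reads.

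Eaat1 (FBgn0026439) encodes a plasma membrane carrier of the SLC1 family that glia use to clear glutamate from around synapses. It was scarce here, with 6 to 48 reads per library. It measured 13.1, 10.7 and 6.32 normalised counts at 0 nM, 15.2, 17.0 and 10.1 at 20 nM, 14.1, 8.95 and 24.3 at 200 nM, and 20.9, 17.4 and 36.0 at 2000 nM. The 2000 nM libraries were all above the 0 nM libraries, and the other doses overlapped them. At 2000 nM it was 2.31-fold higher than at 0 nM (95% interval 1.23 to 4.35; log2 1.21 ± 0.42; limma adjusted p 0.0439), a call that held in 9 of 20 settings, the one given included. It was lost without 0 nM replicate 2 or 3, 20 nM replicate 1 or 2, 200 nM replicate 1, or 2000 nM replicate 1 or 3 (limma adjusted p 0.0503 to 0.181), and with 0 nM replicate 2 alone (0.286). It was also lost with no filter on low values (0.0615) and in a fit of only the doses compared (0.0606). The F test over all doses gave a limma adjusted p of 0.211. Of 7 glia markers, all 7 were in the table and 3 were tested. The defining marker repo held 0 to 3.93 normalised counts in every library, and alrm, gcm and wrapper were also near 0. The summed level of the 7 was 3929 to 4473 at 2000 nM and 4034 to 4411 at 0 nM, nearly all from nrv2 and moody. nrv2 held 3623 to 4183 at 2000 nM and 3778 to 4119 at 0 nM, and moody 231 to 286 and 246 to 313, so both overlapped. Of the 3 tested markers 1 rose and 0 fell at 2000 nM against 0 nM, beside 15.4% and 15.5% of all tested genes. Mdr65, a glial transporter gene, rose at 2000 nM with 14.9, 20.5 and 48.8 normalised counts, against 6.55, 10.7 and 4.43 at 0 nM (log2 1.72 ± 0.53; limma adjusted p 0.0243), and like Eaat1 it was highest in 2000 nM replicate 3. Without that library its adjusted p was 0.130, without 0 nM replicate 1 or 3 it was 0.0555 and 0.0962, and against 0 nM replicate 2 alone 0.379. The part of glial RNA in the Eaat1 value was not tested.

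**Figure D3:**
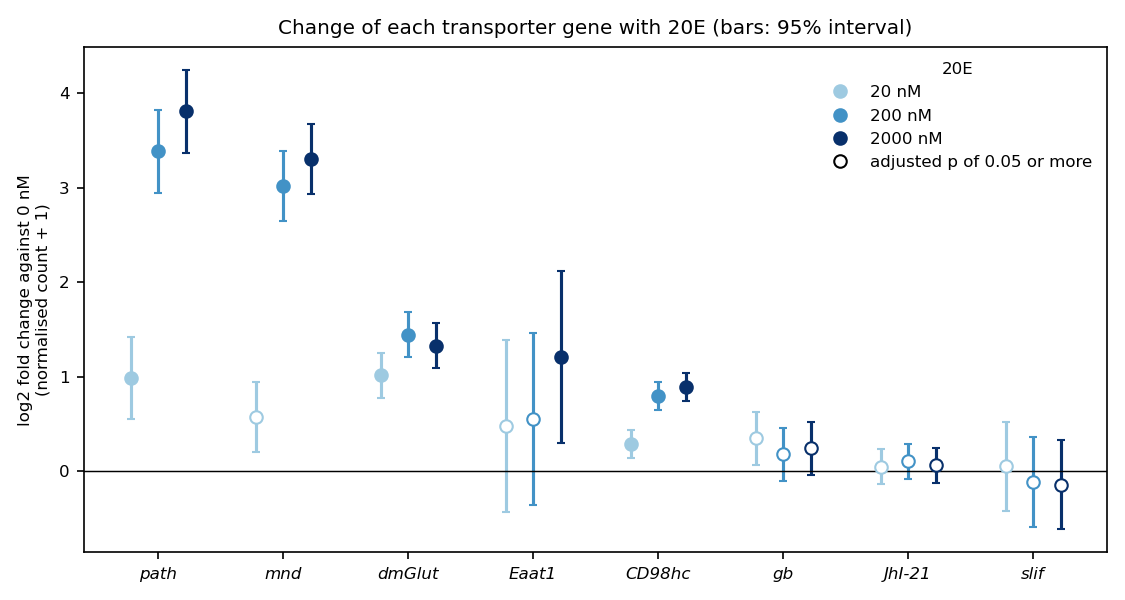
Log2 fold change of each tested transporter gene at 20, 200 and 2000 nM 20E against 0 nM, with 95% intervals from limma on 3 libraries per dose, and filled markers where the adjusted p was under 0.05. path and mnd reach 3.81 and 3.31 at 2000 nM, while the intervals of JhI-21, slif and gb cross 0 there.

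The plot of changes by dose shows the same genes on 1 scale. At 20 nM against 0 nM 3 of the 8 tested genes rose (CD98hc, dmGlut and path), where 4.51% of all tested genes passed the threshold with 2.97% higher and 1.54% lower. At 200 nM against 0 nM 4 of the 8 rose, with mnd as the addition, where 20.4% of all tested genes passed, 9.92% higher and 10.4% lower. At 2000 nM against 0 nM 5 of the 8 rose, with Eaat1 as the addition, where 31.0% of all tested genes passed, 15.4% higher and 15.5% lower. None fell in any of the 6 comparisons in limma, none had a lower value at an unadjusted p under 0.05, and none fell in limma-voom on recovered reads. These comparisons share the 0 nM libraries. The median log2 fold change of the 8 genes was 0.41 at 20 nM, 0.68 at 200 nM and 1.05 at 2000 nM against 0 nM, while the median of all tested genes was 0.00 to 2 decimals at each dose. The count at 20 nM was 1, dmGlut, without 20 nM replicate 2 or against 0 nM replicate 2 alone, and 4 without 200 nM replicate 2.

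Between doses of hormone, 4 of the 8 rose at 200 nM against 20 nM (CD98hc, dmGlut, mnd and path), where 8.0% of all tested genes passed the threshold, 4.23% higher and 3.76% lower. At 2000 nM against 20 nM 3 of the 8 rose (CD98hc, mnd and path), where 16.3% passed, 8.3% higher and 8.04% lower. At 2000 nM against 200 nM limma called 0 of the 8, with 0 at an unadjusted p under 0.05 and 0 in limma-voom, where 0.201% of all tested genes passed, 0.166% higher and 0.0355% lower. In the F test for a difference at any dose, 4 of the 8 passed (CD98hc, dmGlut, mnd and path), against 23.7% of all tested genes. In the authors' deposited table, whose test also runs over all doses, the adjusted p was 2.66e-273 for mnd, 5.08e-214 for path, 2.41e-64 for CD98hc and 1.28e-24 for dmGlut. The other 4 tested genes had adjusted p-values of 0.365 to 0.977 in the authors' deposited table.

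The 4 genes past that F test differed in how much of their change was reached at 20 nM, although mnd and path overlapped each other there. This was measured as the rise over the 0 nM mean, in percent of the rise at 2000 nM, with the SD over the 3 libraries of the dose. That SD leaves out the spread of the 0 and 2000 nM libraries, and mnd did not pass the threshold at 20 nM against 0 nM. mnd had reached 5.24% ± 0.755 at 20 nM and 81.1% ± 21.4 at 200 nM. path had reached 7.47% ± 2.10 at 20 nM and 75.3% ± 27.1 at 200 nM. CD98hc had reached 25.8% ± 9.88 at 20 nM and 86.1% ± 9.27 at 200 nM. dmGlut had reached 67.4% ± 8.63 at 20 nM and 115% ± 23.5 at 200 nM. The library values of dmGlut at 20 nM, 58.8% to 76.1%, lay apart from those of the other 3 genes, of which the highest was 36.9%. At 200 nM the 4 genes overlapped.

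Against all 1306 genes that rose at 2000 nM, mnd and path lay low and dmGlut high at 20 nM, while at 200 nM all 4 genes lay above the median. The median rising gene had reached 26.3% at 20 nM (quartiles 15.2 and 37.5) and 69.5% at 200 nM (quartiles 51.7 and 85.4). At 20 nM, 9.19% of the rising genes had reached less than mnd, 11.9% less than path, 49.4% less than CD98hc and 95.02% less than dmGlut. At 200 nM those shares were 69.6% for mnd, 60.2% for path, 75.7% for CD98hc and 94.3% for dmGlut. This scale is linear and differs from fold change: path at 20 nM was 1.98-fold higher than at 0 nM and had reached 7.47% of its rise.

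**Figure D4:**
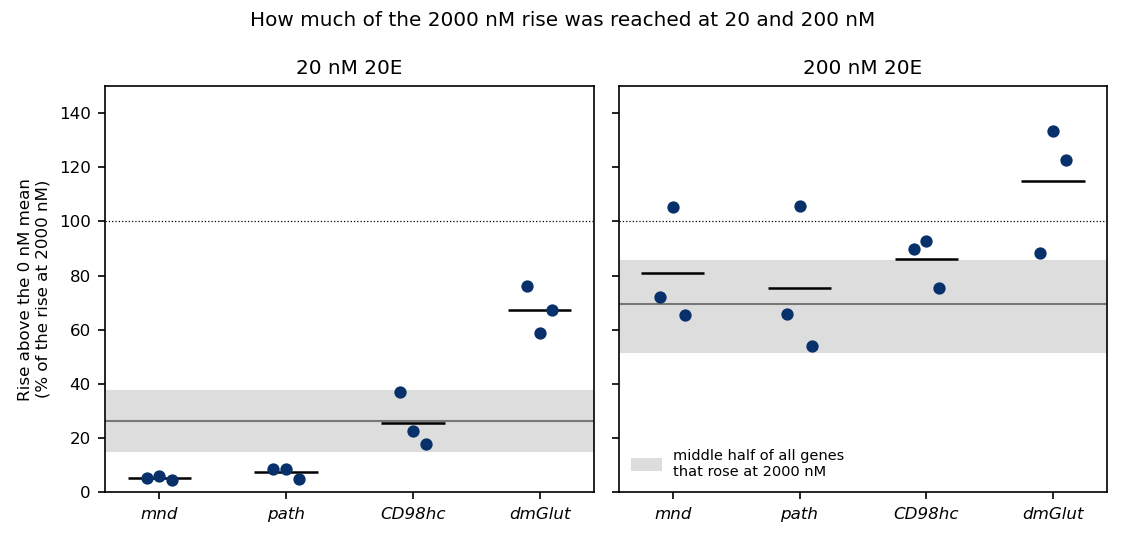
Rise over the 0 nM mean at 20 and 200 nM 20E, in percent of the rise at 2000 nM, for mnd, path, CD98hc and dmGlut, with points for libraries, bars for their mean, and the median and quartiles (grey line and band) of all 1306 genes that rose at 2000 nM for comparison. At 20 nM mnd and path sit at 5.24% and 7.47% and dmGlut at 67.4%.

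For mnd and path the SD was largest at 200 nM. Of the 3 libraries at that dose, replicate 2 held the highest value for 6 of the 8 tested genes and replicate 3 for the other two, while over all tested genes replicate 2 was highest for 33.5%. For path, replicate 2 at 200 nM was above all the 2000 nM libraries. mnd in that library lay inside the 2000 nM range.

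Ordered by level per kb of exon, path and mnd moved past JhI-21 with the hormone while the other places changed little. At 0 nM CD98hc was highest with 1398 ± 20.7 normalised counts per kb, followed by JhI-21 with 525 ± 37.2. Below them came path with 117 ± 28.5, mnd with 96.8 ± 26.6, dmGlut with 71.9 ± 8.57 and gb with 60.4 ± 6.24, and each of these 4 overlapped its neighbour in the order. slif with 20.8 ± 4.08, Eaat1 with 3.19 ± 1.09 and sbm with 0.177 followed, with no overlap. At 20 nM path stood at 228 per kb, and dmGlut (145) and mnd (141) overlapped. At 200 nM path, at 1240 per kb, and mnd, at 781, overlapped each other and both stood above JhI-21 at 565. At 2000 nM no neighbours overlapped, with CD98hc at 2598 ± 157, path at 1609 ± 74.4, mnd at 941 ± 93.9, JhI-21 at 548 ± 32.0 and dmGlut at 180 ± 2.48 normalised counts per kb. gb at 71.1, slif at 18.7, Eaat1 at 7.89 and sbm at 0.314 kept the places they had at 0 nM. Over all libraries, 95.1% of the 8419 tested genes with a known exon length had a lower mean level per kb than CD98hc, 84.4% lower than path, 75.2% lower than JhI-21, 72.0% lower than mnd, 14.0% lower than slif and 3.86% lower than Eaat1.

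The tested genes whose 3 log2 fold changes against 0 nM were closest to those of each transporter gene were picked by the root mean square difference, as a description over 3 comparisons that share the 0 nM libraries. path was closest to ImpL2 (0.177), which encodes a secreted protein that binds insulin-like peptides, and to AdamTS-A (0.212), a secreted metalloprotease gene. mnd was closest to Spn100A (0.212), a serpin gene, and to Glut4EF (0.306). Spn100A averaged 26.1 normalised counts at 2000 nM and 2.30 at 0 nM, about what 3 reads are worth there, so its fold change depends on the added 1. dmGlut was closest to dtr (0.137) and to Qsox2 (0.142), which encodes a sulfhydryl oxidase. dtr was low as well, with a mean of 20.0 normalised counts at 2000 nM and 6.16 at 0 nM, so the added 1 affects its fold change too. CD98hc was closest to Hexo1 (0.0447), a hexosaminidase gene, and to Sobp (0.0468).

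Other amino acid carriers were counted from family lists, which were drawn up with earlier results of these data known. Over all tested genes, 15.4% rose and 15.5% fell at 2000 nM against 0 nM. Among 5 tested SLC7 genes outside the 9, at 2000 nM against 0 nM 1 rose, CG1607, and 1 fell. The one that fell was CG7255, a relative of slif, with 13.2 ± 4.11 normalised counts at 2000 nM and 52.9 ± 14.7 at 0 nM (log2 -1.93 ± 0.31; limma adjusted p 0.000316). Against 0 nM replicate 2 alone its adjusted p was 0.0526. Among 6 tested relatives of path in the SLC36, SLC38 and SLC32 families, 1 rose, CG13384, with 740 ± 79.1 normalised counts at 2000 nM and 619 ± 53.1 at 0 nM (log2 0.26 ± 0.09; limma adjusted p 0.0476). That call was kept in 9 of 21 settings and was lost without any 20 nM library, 0 nM replicate 2 or 3, 200 nM replicate 1 or 2, or 2000 nM replicate 1 or 3 (limma adjusted p 0.0523 to 0.196). It was also lost against 0 nM replicate 2 alone (0.288), with no filter on low values (0.0580) and in a fit of only the doses compared (0.0999). Among 6 tested SLC6 and SLC1 genes, blot rose with 3391 ± 379 normalised counts at 2000 nM and 2221 ± 204 at 0 nM (log2 0.61 ± 0.08; limma adjusted p 7.38e-05). CG1698 fell in the same list, with 142 ± 13.4 normalised counts at 2000 nM and 353 ± 68.9 at 0 nM (log2 -1.29 ± 0.15; limma adjusted p 1.33e-05). The median log2 fold change at 2000 nM against 0 nM was 0.02 for the SLC7 list, 0.19 for the relatives of path and 0.07 for the SLC6 and SLC1 list. At 20 nM against 0 nM CG1607 was the single gene of these 3 lists past the threshold, where 4.51% of all tested genes passed.

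The next list held genes that sense amino acids or act in the response to their shortage. Of 25 tested, 1 rose and 6 fell at 2000 nM against 0 nM, with a median log2 fold change of -0.05, where 15.4% of all tested genes rose and 15.5% fell. REPTOR, a transcription factor held back by TOR complex 1, fell to 1061 ± 172 normalised counts at 2000 nM, against 2155 ± 168 at 0 nM (log2 -1.03 ± 0.13; limma adjusted p 3.6e-05). Thor, the translation repressor 4E-BP, fell to 591 ± 46.8 at 2000 nM, against 994 ± 235 at 0 nM (limma adjusted p 0.00202). Gcn2, the kinase that senses uncharged tRNA, fell to 1022 ± 134 at 2000 nM, against 1524 ± 51.6 at 0 nM (limma adjusted p 0.000369). Wdr24, of the GATOR2 complex upstream of TOR, fell to 425 ± 20.0 at 2000 nM, against 599 ± 30.8 at 0 nM (limma adjusted p 0.000664). The other 3 calls of the list were small: RagA-B and REPTOR-BP fell by 0.24 and 0.26 on the log2 scale, and Rheb, the small GTPase that activates TOR complex 1, rose by 0.25 (limma adjusted p 0.0356 to 0.0385). The RagA-B call was lost without any single 0 nM or 2000 nM library (limma adjusted p 0.0552 to 0.129). The REPTOR-BP call was lost without 0 nM replicate 2 or 3 or 2000 nM replicate 1 or 3 (0.0579 to 0.169). The Rheb call was lost without 0 nM replicate 1 or 3, 200 nM replicate 3 or any 2000 nM library (0.0507 to 0.143). All 3 were also lost against 0 nM replicate 2 alone (0.230 to 0.402).

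At 2000 nM against 0 nM 15.4% of all tested genes rose and 15.5% fell. Of 16 tested enzymes of amino acid and glutathione metabolism, 1 rose and 9 fell, and the median log2 fold change of the 16 was -0.28. Fewer of them fell against 0 nM replicate 2 alone, a fit with 1 library at 0 nM. The share of all tested genes that fell in that fit is not given here, so the lower count cannot be read as a trait of these enzymes. Gdh, glutamate dehydrogenase, fell to 2958 ± 464 normalised counts at 2000 nM, against 6354 ± 697 at 0 nM (log2 -1.11 ± 0.16; limma adjusted p 0.000119). Got2, the mitochondrial aspartate aminotransferase, fell to 1554 ± 139 at 2000 nM, against 2547 ± 139 at 0 nM (limma adjusted p 3.42e-05). aay, a phosphoserine phosphatase of serine synthesis, fell to 73.4 ± 9.55 at 2000 nM, against 158 ± 28.9 at 0 nM (limma adjusted p 0.000128). AsnS, asparagine synthetase, was the gene that rose, with 273 ± 56.8 normalised counts at 2000 nM and 66.2 ± 9.35 at 0 nM (log2 2.02 ± 0.26; limma adjusted p 4.51e-05).

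The cytosolic aminoacyl-tRNA synthetases join amino acids to their tRNAs. Of 20 tested, 4 rose and 1 fell at 2000 nM against 0 nM, where 15.4% of all tested genes rose and 15.5% fell. The median log2 fold change of the 20 was -0.02. ValRS rose to 1345 ± 84.8 normalised counts at 2000 nM, against 1019 ± 62.4 at 0 nM (limma adjusted p 0.00343), and AsnRS to 3151 ± 221 at 2000 nM, against 2524 ± 47.5 at 0 nM (limma adjusted p 0.00159). GluProRS fell by 0.36 on the log2 scale (limma adjusted p 0.000976), and 2 fell without 0 nM replicate 1 or 2000 nM replicate 2 and 3 with the replicate block. Fewer synthetases rose against 0 nM replicate 2 alone, a fit with 1 library at 0 nM, and ValRS missed the threshold there. The share of all tested genes that rose in that fit is not given here.

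**Figure D5:**
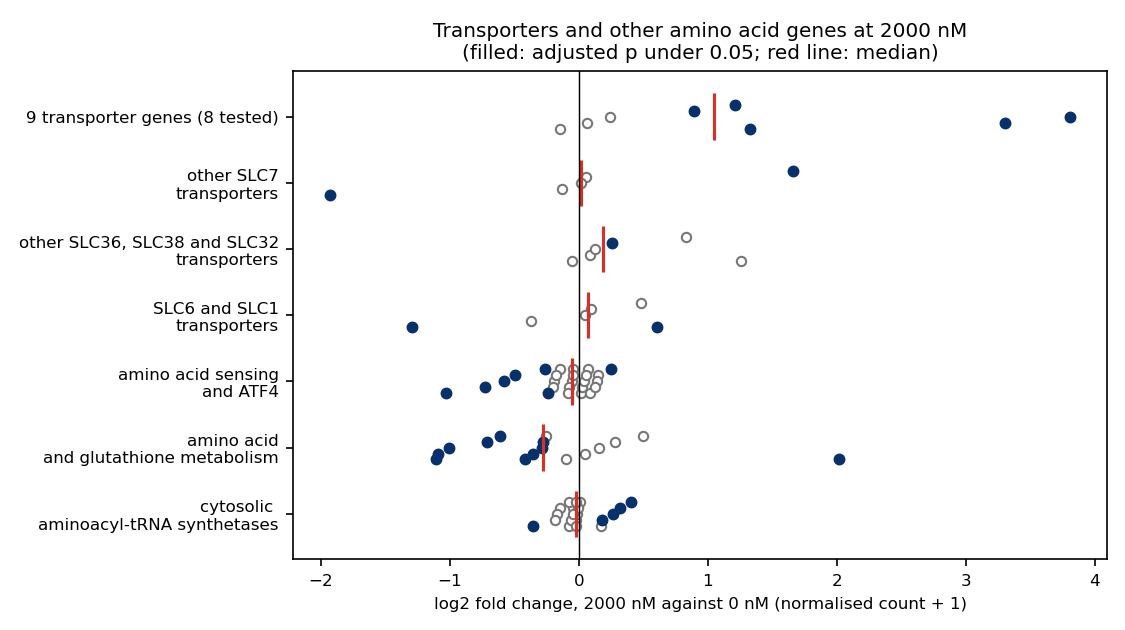
Log2 fold change at 2000 nM against 0 nM 20E for each tested gene of the transporter genes and of 6 related lists, with 1 row per list, filled points for genes with a limma adjusted p under 0.05, a black line at 0 and a red line at each list's median. The transporter genes reach 3.81 with none past the threshold below 0, while in amino acid and glutathione metabolism 9 of 16 fell and AsnS rose.

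Levels of genes listed as markers of other tissues were read beside these results. The summed level of 5 tracheal markers was 24367 to 28982 at 2000 nM and 34051 to 38129 at 0 nM, mostly from verm and uif. Of these 5, 1 rose and 2 fell at 2000 nM against 0 nM, beside 15.4% and 15.5% of all tested genes. The tracheal regulator trh was higher, with 1781 to 1895 at 2000 nM and 1317 to 1445 at 0 nM. btl, another of the 5, held 144 to 182 at 2000 nM and 189 to 208 at 0 nM. Whether the RNA of verm and uif came from trachea or from the disc epithelium was not tested, so the sum is no measure of tracheal RNA. For 5 neuronal markers the sum was 620 to 790 at 2000 nM and 334 to 459 at 0 nM. Nearly all of it was elav, with 609 to 766 at 2000 nM and 304 to 441 at 0 nM, while brp, Syt1 and fne were too low to be tested. Blood cell markers, 6 genes, summed to 34.8 to 120 at 2000 nM and 25.3 to 83.8 at 0 nM. Salivary gland markers, 3 genes, summed to 11.1 to 27.0 at 2000 nM and 8.52 to 20.9 at 0 nM. Markers of adult muscle precursors, 4 genes, summed to 1255 to 1528 at 2000 nM and 1431 to 1686 at 0 nM. Of these 4, 1 rose and 2 fell at 2000 nM against 0 nM, beside 15.4% and 15.5% of all tested genes. htl held 278 to 342 at 2000 nM and 496 to 527 at 0 nM, and zfh1 558 to 776 and 398 to 488. The part of such cells in the changes of the transporter genes was not tested. Against 0 nM replicate 2 alone, the library with the lowest fat body sum, the log2 fold change at 2000 nM was 2.89 for mnd, 3.59 for path, 1.30 for dmGlut and 0.87 for CD98hc, and all 4 stayed past the threshold.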

How the data were processed

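The submitters' processing notes name DESeq2 (1.32.0), Subread (2.0.1), SAMtools (1.13) and HISAT2 (2.1.0), with no order. No setting, build, annotation or strand option is stated in the sources used here, and for that reason no coordinates or sequences are printed. Per the labels' protocols, RNA was column-purified and libraries were directional and poly(A)-selected, although the molecule is labelled total RNA. The deposited values are signal, that is, read counts scaled by the authors with 1 size factor for each library (100% of values were whole multiples of 1 read within 0.001). The authors' deposited table also holds log2 fold changes (2000 nM over 0 nM), a likelihood ratio score, and its p-value and adjusted p-value.

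Here, 12216 genes were filtered to 8455 (10 normalised counts in 3 libraries), transformed as log2(value + 1) and given to limma 3.58.1 (R 4.3.3), with 1 mean per dose over all 12 libraries, an intensity trend and 8 residual degrees of freedom. Tests were two-sided with Benjamini-Hochberg adjustment over all tested genes. Exon lengths came from Ensembl 115, where 12167 identifiers were found. The fit was tested on simulated data.

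The transporter genes and all lists were chosen with earlier results of these data known. Besides the transporter genes, the text names up to 4 genes per list with the smallest adjusted p at 2000 nM against 0 nM, up to 2 per list in each other comparison, and the 2 genes closest to each transporter gene past the F test; among these closest genes, CG and CR numbers, RNA codes and rows without a symbol were left out. Mdr65, Rheb, RagA-B and REPTOR-BP are outside that rule and were named after their values were seen. Alternatives were the added constant, the filter, TMM scaling, a block on replicate number, fits of only the doses compared, each library left out, and, chosen after seeing the data, limma-voom on recovered reads and 0 nM replicate 2 alone.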

Additional observations from a re-analysis of the deposited data

How the results depend on the processing

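Of 954 alternative values of the transporter genes' log2 fold changes, 907 kept their direction and their side of the threshold, 23 kept their direction but lost the threshold, 6 passed it newly and 18 changed direction. Those 18 belong to comparisons past no threshold in either fit, and the cause was not tested. Their limma adjusted p was at least 0.481 in the fit described above and at least 0.823 in the alternatives. With single libraries left out, the log2 fold change of slif ran from -0.12 to 0.16 at 20 nM and -0.31 to 0.10 at 200 nM against 0 nM, -0.36 to 0.047 at 200 nM against 20 nM and -0.24 to 0.17 at 2000 nM against 200 nM. That of JhI-21 ran from -0.00066 to 0.10 at 20 nM against 0 nM, -0.031 to 0.11 at 200 nM and -0.031 to 0.064 at 2000 nM against 20 nM, and -0.10 to 0.047 at 2000 nM against 200 nM. That of Eaat1 at 200 nM against 20 nM ran from -0.27 to 0.40, and that of gb at 2000 nM against 20 nM from -0.21 to 0.025. With 0 nM replicate 2 alone, slif was -0.18 at 20 nM, and JhI-21 was -0.069 at 20 nM, -0.013 at 200 nM and -0.053 at 2000 nM, each against 0 nM. The number of transporter genes called at 20 nM against 0 nM was 3, and 1 without 20 nM replicate 2 and with 0 nM replicate 2 alone; with single libraries left out it ran from 1 to 4. With libraries left out, the number was 4 in each fit at 200 nM against 0 nM, 4 to 5 at 2000 nM against 0 nM, 3 to 4 at 200 nM against 20 nM and 3 to 4 at 2000 nM against 20 nM. A lone 0 nM library was assumed to vary like the other groups. The fit did not pair samples by replicate number. Deviations of libraries with the same number correlated at -0.367 to 0.396 (median 0.0567), above 0.1 in 7 of 18 pairs. Those with different numbers correlated at -0.381 to 0.382 (median -0.0471), above 0.1 in 7 of 36 pairs. The 2 ranges overlap, so whether replicate numbers pair the samples cannot be told from these values. With the replicate block, 4 were called at 20 nM against 0 nM, where mnd had an adjusted p of 0.00416, and Eaat1 at 2000 nM against 0 nM had one of 0.0538. TMM factors were 0.992 to 1.007 of the authors' scale. The planned count tests with other tools were not run, because 1 column holds the values of all libraries, and limma-voom on recovered reads was run instead, with 4 called at 2000 nM against 20 nM where the other fit called 3. Over all tested genes, 17 passed at 2000 nM against 200 nM, 46 with the replicate block and 0 without 200 nM replicate 3 or 2000 nM replicate 1. Depth limits Eaat1 and sbm, whose few reads leave wide intervals or no test.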
